A study of Mus musculus with 20 samples.

Results

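The carboxylesterase genes Ces1c, Ces1d, Ces1e, Ces1f, Ces1g, Ces2a, Ces2c, Ces2e, Ces3a and Ces3b are 10 of the 21900 protein-coding genes in the RefSeq table used here. They were taken as a list by name, with earlier results of these data known. Counts set beside shares of all intervals therefore only describe this list. All 10 lie on chromosome 8 in 2 groups of neighbours, with the Ces1 genes from Ces1c at chr8:93099015-93131283 to Ces1g at chr8:93302369-93337209 and the others from Ces2a at chr8:104734003-104741634 to Ces3b at chr8:105083733-105093929 (build mm10). A consensus interval is a region in the submitters' merged peak list for a histone mark, and it was assigned to a gene when its midpoint lay in the gene body or within 5 kb of it. This gave 45 of 65776 H3K27ac intervals, 70 of 103014 H3K4me1 intervals and 26 of 46568 H3K9ac intervals. The study profiled liver of 9-week-old male C57BL/6 mice after a fast of 24 h in 4 genotypes. These are wild type (WT), a liver knockout of Cpt2 (Cpt2 L-/-, here Cpt2 KO), a knockout of Ppara (Ppara -/-, here Ppara KO, called whole-body in the labels of the double mutant) and the double knockout carrying both (Cpt2 L-/- ; Ppara -/-, here DKO). H3K27ac and H3K4me1 have 2 libraries per genotype, and H3K9ac has 1 WT and 1 Cpt2 KO library. All groups were fasted, and fed liver is not analysed here. The Cre line behind the Cpt2 deletion, and whether the WT mice carry floxed alleles, are not given in the sources used here. The labels do not say whether replicates are separate animals, so the p-values measure only the spread between these libraries, which may be technical.

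Carboxylesterases are serine hydrolases of the endoplasmic reticulum and plasma that cleave esters, amides and thioesters, and liver is among their main sites of expression. They activate or clear many ester drugs and also act on acylglycerols and cholesteryl esters, so some of them take part in moving stored fat into very low density lipoprotein or towards oxidation. Cpt2 encodes the inner-membrane enzyme of the carnitine shuttle that lets long-chain fatty acids enter mitochondrial oxidation, and Ppara encodes the fatty acid-sensing nuclear receptor that drives much of the fasting response in hepatocytes. H3K4me1 marks primed and active enhancers, whereas H3K27ac and H3K9ac are acetylation marks of active promoters and enhancers.

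Promoter sequences were in the reference table for 7 of the 10 genes (RefSeq, GRCm38.p6, which is mm10). H3K27ac peaks were counted over the 250 bases before the start of transcription together with the first bases after it. Ces1c, with a peak over this window in 8 libraries, and Ces2e, with one in 3, are not printed. The 5 printed are Ces1e, Ces1g and Ces3b, with a peak in every library, Ces2a, with one in 6, and Ces2c, with one in 1. Each is the 250 bases before the first transcribed base, read 5′ to 3′ on the gene's strand (minus for Ces1e and Ces1g, plus for the others), at chr8:93229620-93229869, chr8:93337210-93337459, chr8:104733753-104734002, chr8:104846818-104847067 and chr8:105083505-105083754, in the order below. Capitals mark the letters of the motifs TATAAA and CCAAT, and of AGGTCA, on either strand. The Ces2c peak lies in chr8:104847093-104847567, past the printed bases.
Ces1e: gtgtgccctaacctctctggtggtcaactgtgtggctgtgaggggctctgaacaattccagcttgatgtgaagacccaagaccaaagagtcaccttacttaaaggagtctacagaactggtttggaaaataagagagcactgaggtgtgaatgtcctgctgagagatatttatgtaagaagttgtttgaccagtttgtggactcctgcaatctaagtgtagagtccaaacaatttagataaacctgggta
Ces1g: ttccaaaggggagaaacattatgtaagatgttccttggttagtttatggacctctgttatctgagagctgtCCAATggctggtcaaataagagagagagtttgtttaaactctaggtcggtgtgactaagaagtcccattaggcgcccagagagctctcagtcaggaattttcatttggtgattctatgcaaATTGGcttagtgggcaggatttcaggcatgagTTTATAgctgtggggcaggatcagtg
Ces2a: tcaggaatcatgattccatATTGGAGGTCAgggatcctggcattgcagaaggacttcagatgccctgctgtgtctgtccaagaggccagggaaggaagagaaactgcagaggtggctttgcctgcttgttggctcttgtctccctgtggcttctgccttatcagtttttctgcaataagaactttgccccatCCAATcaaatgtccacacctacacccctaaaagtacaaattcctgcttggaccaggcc
Ces2c: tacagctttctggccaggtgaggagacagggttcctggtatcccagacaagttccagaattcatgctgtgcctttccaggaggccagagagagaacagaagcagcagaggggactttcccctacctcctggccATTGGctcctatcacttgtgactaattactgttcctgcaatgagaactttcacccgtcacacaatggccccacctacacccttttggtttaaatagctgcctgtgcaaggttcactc
Ces3b: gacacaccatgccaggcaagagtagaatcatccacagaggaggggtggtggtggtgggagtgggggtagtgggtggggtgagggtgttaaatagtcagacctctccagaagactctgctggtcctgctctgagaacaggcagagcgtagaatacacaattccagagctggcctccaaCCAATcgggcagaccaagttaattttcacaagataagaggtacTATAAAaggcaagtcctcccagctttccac
Ces3b holds TATAAA with its first base at -30 from the start and CCAAT at -73, and Ces1g holds TATAAA on the opposite strand at -26 with CCAAT at -179 and, on the opposite strand, at -58. TATAAA was found in 12.4% and CCAAT in 33.8% of all 32851 windows of this length in the table. Ces2a holds AGGTCA, a half-site read by nuclear receptors, at -226, directly after an opposite-strand CCAAT at -231, and AGGTCA was found in 14.0% of windows. None of the 7 windows holds a direct repeat of AGGTCA spaced by 1 base, known as DR1 and bound by the receptor that Ppara encodes, and this repeat was found in 0.0335% of windows. The other motifs searched were the direct repeat of AGTTCA spaced by 4 bases (0.00913% of windows), an HNF1 motif (0.00913%), a C/EBP motif in a longer form with free middle bases (1.74%) and in a shorter form with fixed ones (0.164%), and the antioxidant response element core (10.2%). None of these was in a carboxylesterase window. Ces1e and Ces2e held no motif searched. The Ces2a and Ces2c windows were identical at 166 of 250 bases (66.4%) in a global alignment that allowed gaps, which was the highest identity among the 7. The lowest identity of a pair was 50%.

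The deposited lists held 44454 to 48929 H3K27ac peaks per library covering 42.0 to 47.8 Mb, and 61189 to 72151 H3K4me1 peaks covering 38.8 to 53.5 Mb. The value of an interval in a library is the highest fold over the pooled input among the overlapping peaks, and a library with no overlapping peak has no call, which is not a measured 0. Read depth is unknown, since the files hold no read counts. In H3K27ac the narrowest peak was 198 to 210 bases wide in the 4 libraries with intact Cpt2 and 217 to 223 in the 4 without it, so the narrowest peak width and Cpt2 genotype cannot be told apart. In H3K4me1 it was 196 to 200 bases in Ppara KO replicate 1, Cpt2 KO replicate 2 and the pair of WT libraries, which covered 52.5 to 53.5 Mb, and 210 to 221 in the other 4, which covered 38.8 to 46.0 Mb. Of the hepatocyte markers 9 of 10 had an H3K27ac interval called in all 8 libraries, against 4 of 4 endothelial, 2 of 6 leukocyte, 0 of 4 stellate and 0 of 4 cholangiocyte markers and 1 of 4 genes not expressed in liver.

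H3K27ac peaks covered less of the carboxylesterase genes in each mutant than in WT, and least in DKO. Within 5 kb of the 10 genes, peaks covered 72.0 and 66.1 kb (WT), 42.4 and 49.8 kb (Cpt2 KO), 50.5 and 50.4 kb (Ppara KO), and 19.2 and 21.8 kb (DKO). Every mutant library lay below both WT libraries, and both DKO libraries lay below all others. Over the whole genome the same lists covered 47.8 and 47.1 Mb (WT), 42.1 and 44.6 Mb (Cpt2 KO), 47.4 and 44.8 Mb (Ppara KO), and 42.0 and 44.9 Mb (DKO). The DKO lists therefore covered about as much of the genome as the Cpt2 KO lists. The median fold of the peaks at the 10 genes was 7.50 and 7.16 (WT), 10.0 and 7.90 (Cpt2 KO), 7.04 and 6.77 (Ppara KO), and 7.82 and 7.33 (DKO). Over all peaks of a library the median fold was 6.69 and 7 (WT) and 8.02 and 7.42 (Cpt2 KO). It was 6.75 and 7.17 (Ppara KO) and 7.75 and 8.21 (DKO). Both WT and both Cpt2 KO medians at the genes lay above those of their libraries. In Ppara KO and DKO, replicate 1 lay above its library's median and replicate 2 below. In whole tissue, fewer cells with the mark and less of the mark per cell cannot be told apart.

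**Figure D1:**
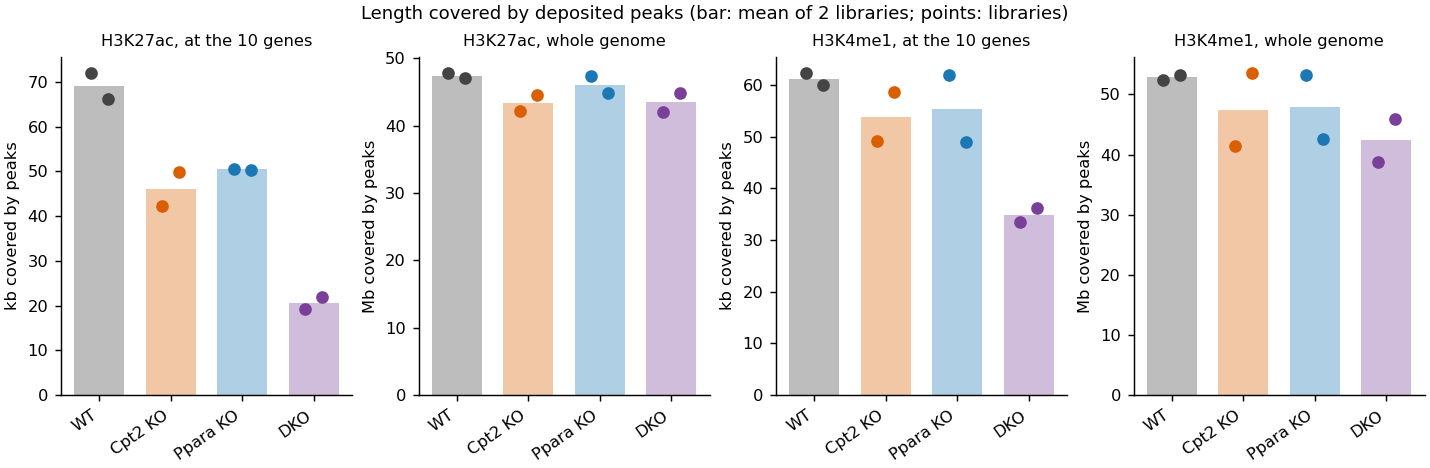
Length covered by deposited peaks in each library (points) and the mean of 2 libraries (bars), in kb within 5 kb of the 10 carboxylesterase genes and in Mb over the whole genome, for H3K27ac and H3K4me1. At the genes, H3K27ac covered 66.1 to 72.0 kb in WT and 19.2 to 21.8 kb in DKO, while the whole-genome lengths lay between 42.0 and 47.8 Mb.

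The number of intervals called followed the same order at its ends. Of the 45 H3K27ac intervals, the libraries called 35 and 31 (WT), 18 and 24 (Cpt2 KO), 19 and 23 (Ppara KO), and 15 and 21 (DKO). At these 45, the Cpt2 KO, Ppara KO and DKO counts overlapped each other, and all lay below WT. Of all 65776 H3K27ac intervals, the libraries called 34347 and 33878 (WT), 35865 and 35407 (Cpt2 KO), 33559 and 32126 (Ppara KO), and 36182 and 38796 (DKO). Over all intervals DKO was thus the highest. Calls in both WT libraries and in no other library were made at 6 of 45 intervals, with 3.29% of all H3K27ac intervals showing that pattern. The 6 lie at Ces1f, Ces1g, Ces2a, Ces2e and, for 2 of them, Ces3b. Of the 45, 13 were called in all 8 libraries (27.8% of all intervals) and 12 in 1 library (27.2% of all).

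**Figure D2:**
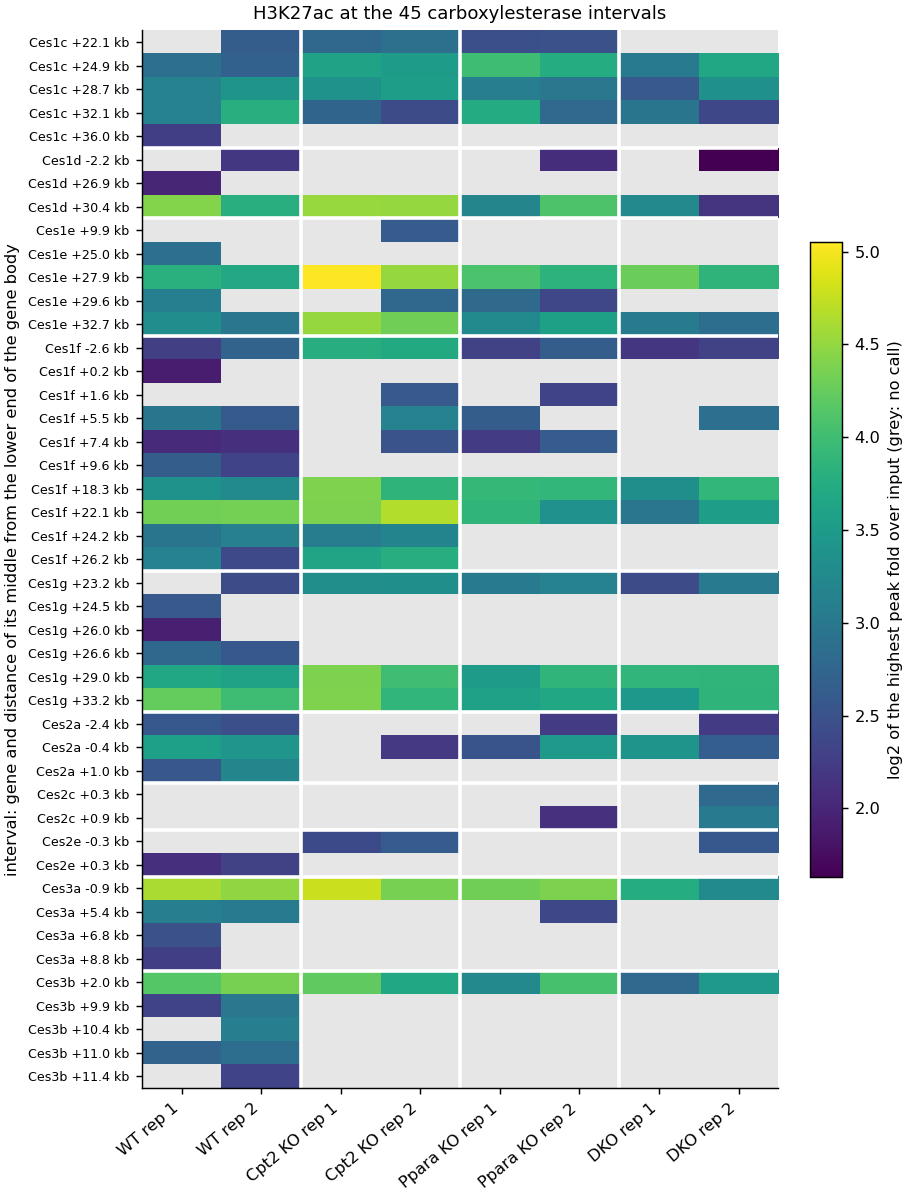
Log2 of the highest H3K27ac peak fold over input (colour) at the 45 intervals (rows, named by gene and by the distance in kb of the interval's middle from the gene body's lower end) in the 8 libraries (columns), with grey for no call. Grey fills the mutant columns at the intervals around +9.9 to +11.4 kb of Ces3b, and the pair at +24.2 and +26.2 kb of Ces1f is called only in the WT and Cpt2 KO columns.

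The 13 intervals called in every library were compared between genotypes with limma, fitted over all 18281 such intervals. The fits used log2 folds centred on each library's median. Folds printed for single libraries, and the order of libraries by fold, are before centring. Without Ppara (Ppara KO and DKO against WT and Cpt2 KO), 5 of the 13 were lower and 0 were higher at an adjusted p under 0.05, where 6.80% of all intervals passed, 2.90% higher and 3.89% lower. The 5 lie at Ces1d, Ces1f (2 intervals), Ces3a and Ces3b, and the median log2 difference of the 13 was -0.52 against -0.02 over all intervals. Without Cpt2 (Cpt2 KO and DKO against WT and Ppara KO), 2 of the 13 were lower, at Ces1c and Ces3a, and 0 higher, where 12.2% of all passed, 7.26% higher and 4.99% lower. The interaction of the 2 deletions passed at 0 of 13 and at 0% of all intervals by limma, with 7 of the 13 and 2620 of all under an unadjusted p of 0.05. The pairwise comparisons below share the 2 WT libraries. In DKO against WT 4 of the 13 were lower (18.9% of all intervals passed, 8.91% lower and 10.0% higher). In Cpt2 KO, 3 were higher than in WT (12.6% passed, 6.64% higher and 5.93% lower), and in Ppara KO 1 was higher than in WT (5.93% passed, 2.32% higher and 3.61% lower). The 4 lower in DKO were at Ces1d, Ces1f, Ces3a and Ces3b, the 3 higher in Cpt2 KO at Ces1e (2) and Ces1f, and the 1 higher in Ppara KO at Ces1c. None of the 5 intervals lower without Ppara passed in Ppara KO against WT. The limma adjusted p there was 0.440 at Ces1d, 0.913 and 0.113 at Ces1f (in order of position), 0.607 at Ces3a and 0.211 at Ces3b. With the narrowest peak width of each library as a covariate, no call was left in the comparisons of Cpt2-null with Cpt2-intact or of any mutant with WT, and 3 of 5 were left for Ppara. The Ppara calls lost were those at Ces3a and at the Ces1f interval chr8:93251920-93255287.

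**Figure D3:**
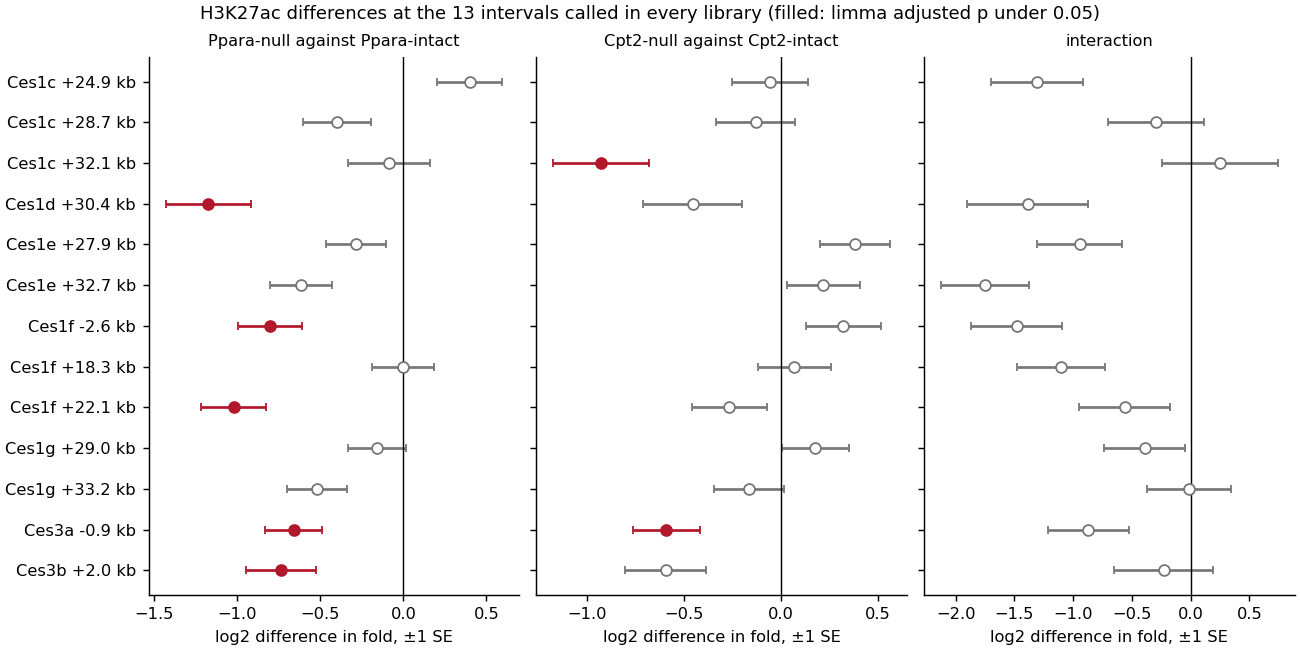
Log2 difference in H3K27ac fold (points, with bars of 1 standard error on each side) at the 13 intervals called in all 8 libraries, for the loss of Ppara, the loss of Cpt2 and their interaction, with filled points where limma's adjusted p was under 0.05. For the loss of Ppara 5 points are filled, all below 0, and for the interaction none is.

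Among the Ces1 genes, Ces1d carried an H3K27ac interval that was lower without Ppara. Ces1d, also known as triacylglycerol hydrolase, releases fatty acids from stored triacylglycerol for lipoprotein assembly. Its strongest interval, chr8:93193241-93199779, spans the upper end of the gene body (middle at +30.4 kb) and is also within 5 kb of Ces1e. The fold was 21.3 and 13.9 (WT), 23.0 and 22.7 (Cpt2 KO), 9.14 and 17.1 (Ppara KO), and 9.50 and 4.41 (DKO). Before centring, the Cpt2 KO libraries were the highest and DKO replicate 2 the lowest, and Ppara KO replicate 2 lay within the WT range. After centring, the Cpt2 KO and WT libraries overlapped. The fold was 2.26-fold lower without Ppara (log2 difference -1.18 ± 0.26 SE, limma adjusted p = 0.0110) and 3.10-fold lower in DKO than in WT (-1.63 ± 0.36, adjusted p = 0.00697). Leaving out WT replicate 1 (adjusted p = 0.0513), Ppara KO replicate 1 (0.0648) or DKO replicate 2 (0.0516) ended the first call, and leaving out WT replicate 1 (0.0658) or DKO replicate 2 (0.0938) ended the second. All peaks within 5 kb of Ces1d, not only those over this interval, covered 6.59 and 5.07 kb (WT), 4.02 and 5.08 kb (Cpt2 KO), 2.39 and 4.5 kb (Ppara KO), and 1.56 and 0.749 kb (DKO). DKO was the lowest, and Cpt2 KO overlapped WT.

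At Ces1f, the end of the gene body nearest Ces1g was lower without Ppara. The interval chr8:93276937-93279805 (middle at +22.1 kb, ending just past the gene body's upper end at 93279766) had a fold of 20.0 and 20.2 (WT), 20.7 and 25.4 (Cpt2 KO), 14.6 and 10.2 (Ppara KO), and 7.85 and 11.7 (DKO). All 4 libraries without Ppara lay below all 4 with it. The fold was 2.03-fold lower without Ppara (-1.02 ± 0.19, adjusted p = 0.00458), and the call was kept under each of the 17 alternatives run, with adjusted p from 0.00436 to 0.0327. It was 2.44-fold lower in DKO than in WT (-1.29 ± 0.28, adjusted p = 0.00568; 0.0551 without DKO replicate 1).

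Just outside the gene body at that end, a pair of H3K27ac intervals was called in all 4 libraries with Ppara and in none of the 4 without it. The pattern was seen at 0.725% of all H3K27ac intervals. The interval chr8:93279945-93280971 had a fold of 7.80 and 8.70 in WT and 8.40 and 9.00 in Cpt2 KO. The next, chr8:93281167-93283755, had 8.85 and 5.22 in WT and 12.4 and 13.6 in Cpt2 KO. The H3K4me1 interval over the same stretch, chr8:93280079-93283751, was called in all 8 libraries. Its fold was 9.40 and 7.80 (WT), 12 and 8.83 (Cpt2 KO), 6.20 and 7.40 (Ppara KO), and 7 and 6.60 (DKO). The 4 libraries without Ppara were again the lowest, but the difference did not pass (-0.47 ± 0.20, limma adjusted p = 0.299).

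**Figure D4:**
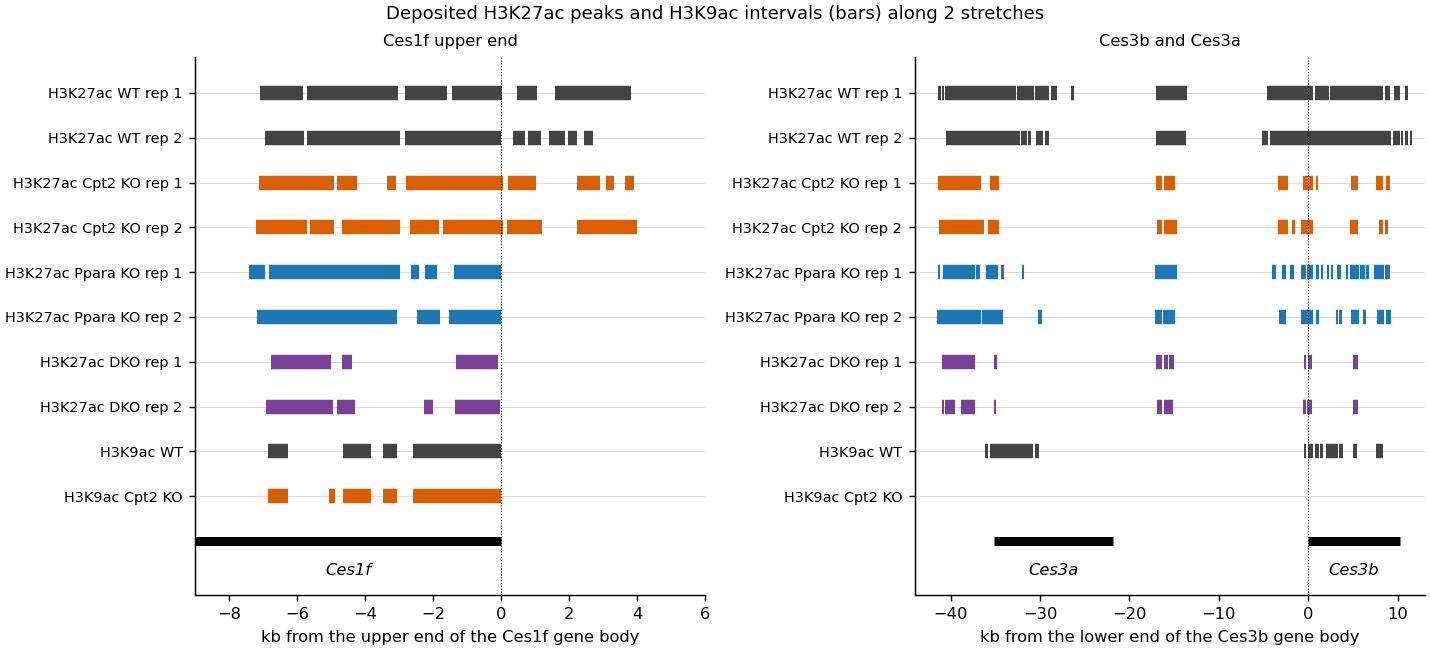
Deposited H3K27ac peaks by library and H3K9ac intervals assigned to the genes (bars), drawn against the distance in kb from the upper end of the Ces1f gene body (left) and from the lower end of the Ces3b gene body (right), with gene bodies in black. Past the upper end of Ces1f, peaks are drawn in the WT and Cpt2 KO rows only, and over Ces3b the peaks form a near-continuous stretch only in the 2 WT rows.

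At the lower end of Ces1f and above Ces1e, H3K27ac was higher in Cpt2 KO than in WT, while Ppara KO and DKO did not pass against WT. The interval chr8:93251920-93255287, whose middle is 2.6 kb below the Ces1f gene body, had a fold of 4.88 and 6.60 (WT), 13.6 and 13.1 (Cpt2 KO), 4.88 and 6.23 (Ppara KO), and 4.53 and 4.94 (DKO). Only the Cpt2 KO libraries stood above 7. The fold was 2.09-fold higher in Cpt2 KO than in WT (1.06 ± 0.27, adjusted p = 0.0204) and 1.75-fold lower without Ppara than with it (-0.80 ± 0.19, adjusted p = 0.0190). Ppara KO differed from WT by only -0.06 ± 0.27 (limma adjusted p = 0.913), and the average with Ppara includes the high Cpt2 KO libraries. The interaction at this interval did not pass (-1.48 ± 0.39, adjusted p = 0.137). Leaving out WT replicate 1 (adjusted p = 0.0738), WT replicate 2 (0.0510), Cpt2 KO replicate 1 (0.128) or Cpt2 KO replicate 2 (0.0937) ended the first call. The second was ended by leaving out WT replicate 2 (0.0642), Cpt2 KO replicate 2 (0.0742), Ppara KO replicate 1 (0.0805), DKO replicate 1 (0.0517) or DKO replicate 2 (0.0510).

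Ces1e, the esterase known to hold beta-glucuronidase in the endoplasmic reticulum, had 2 such intervals at its 5′ end. The interval over its start, chr8:93227769-93230404, which holds the promoter printed above, had a fold of 14.0 and 13 (WT), 33.2 and 22.7 (Cpt2 KO), 17.0 and 14.3 (Ppara KO), and 19.5 and 14.5 (DKO). The Cpt2 KO libraries were the highest and all 6 others lay between 13 and 19.5. It was 1.81-fold higher in Cpt2 KO than in WT (0.85 ± 0.26, adjusted p = 0.0387), and leaving out any of the 4 WT and Cpt2 KO libraries in turn ended the call (adjusted p from 0.0513 to 0.334 over those fits), as did centring on the intervals in the fit (0.0529). The interval upstream of the start, chr8:93231496-93236414, had a fold of 9.87 and 7.89 (WT), 22.8 and 19.8 (Cpt2 KO), 9.65 and 11.9 (Ppara KO), and 8.33 and 7.28 (DKO). Again the Cpt2 KO libraries stood apart from the other 6. It was 2.14-fold higher in Cpt2 KO than in WT (1.10 ± 0.26, adjusted p = 0.0163), a call that ended without WT replicate 2 (0.0938), Cpt2 KO replicate 1 (0.137) or Cpt2 KO replicate 2 (0.0660). Its interaction was the one with the lowest adjusted p among the 13 and did not pass (-1.75 ± 0.37, adjusted p = 0.0895).

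**Figure D5:**
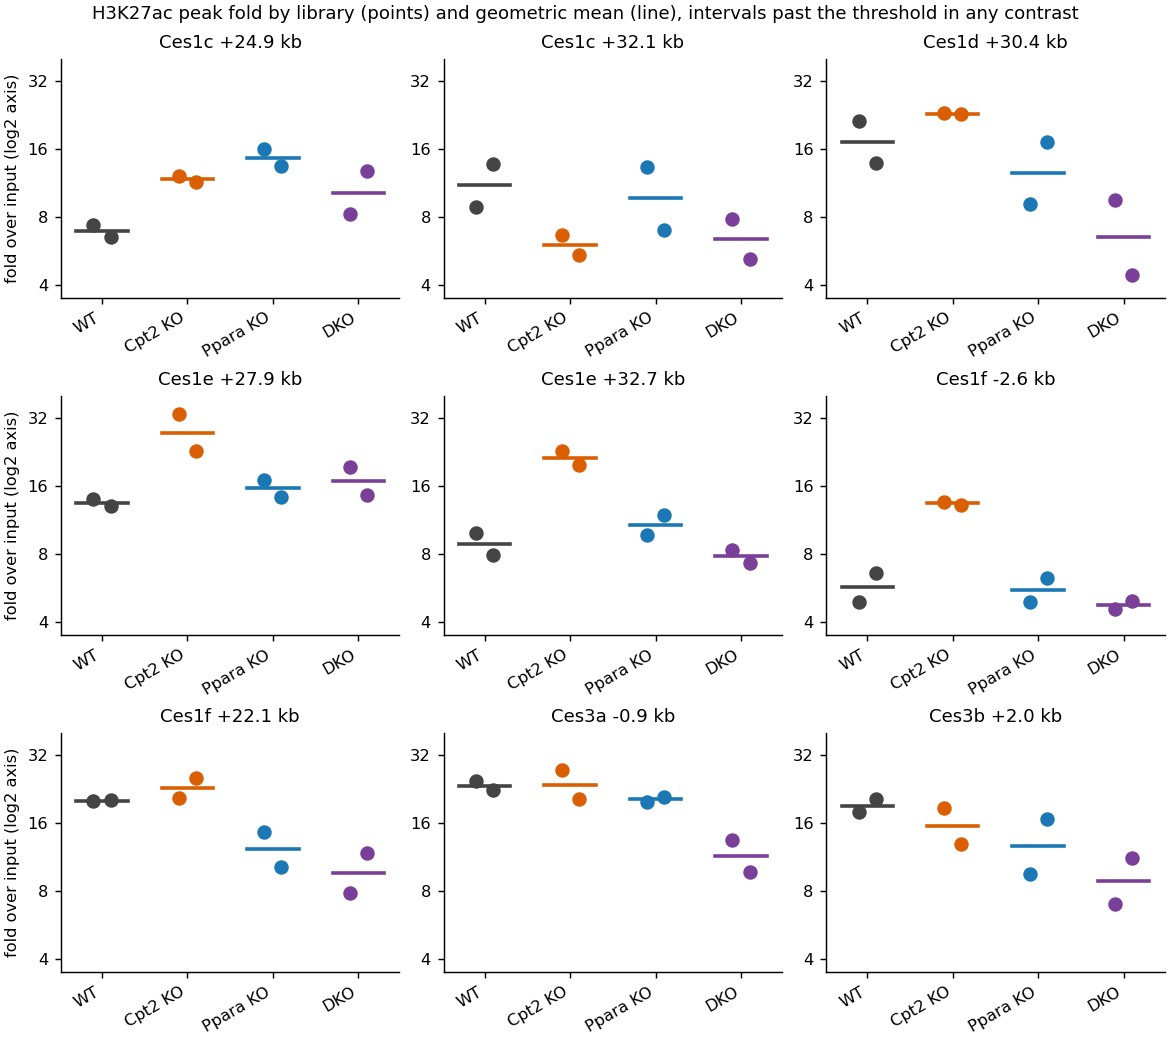
H3K27ac fold over input on a log2 axis in each library (points) with the geometric mean of the 2 libraries (lines), by genotype, at the 9 intervals past the limma threshold in any comparison, named by gene and distance in kb from the gene body's lower end. Cpt2 KO stands above the other genotypes at Ces1e +27.9 and +32.7 kb and Ces1f -2.6 kb, and DKO is the lowest genotype at Ces1d, Ces1f +22.1 kb, Ces3a and Ces3b.

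Ces1c, which encodes the main plasma carboxylesterase of the mouse, moved in a different way at neighbouring intervals. At chr8:93121731-93126007, within the gene body, the fold was 7.37 and 6.48 (WT), 12.2 and 11.4 (Cpt2 KO), 15.9 and 13.4 (Ppara KO), and 8.20 and 12.7 (DKO). Before centring, both WT libraries were the lowest, and after centring the DKO and WT libraries overlapped. The fold was 2.08-fold higher in Ppara KO than in WT (1.05 ± 0.28, adjusted p = 0.0361), and the call ended without WT replicate 2 (0.182), Ppara KO replicate 1 (0.211) or Ppara KO replicate 2 (0.0948). At chr8:93129473-93132728, which holds the start of the gene, the fold was 8.83 and 13.7 (WT), 6.64 and 5.40 (Cpt2 KO), 13.3 and 7 (Ppara KO), and 7.79 and 5.17 (DKO). The libraries without Cpt2 reached from 5.17 to 7.79 and those with it from 7 to 13.7, so the ranges overlapped. The fold was 1.90-fold lower without Cpt2 (-0.93 ± 0.25, adjusted p = 0.0241). That call ended without WT replicate 2 (0.0854), Cpt2 KO replicate 1 (0.0539), Cpt2 KO replicate 2 (0.0602), Ppara KO replicate 1 (0.106) or DKO replicate 2 (0.0904), and with intervals called in at least 4 libraries (0.0534). With the peak-width covariate the difference was 0.73.

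Ces1g, a hydrolase known to restrain lipid synthesis and lipoprotein secretion in liver, passed in no comparison of the main fit. Its strongest interval, chr8:93333243-93337935 over the start of the gene, had a fold of 19.0 and 15.9 (WT), 21.0 and 14.7 (Cpt2 KO), 12 and 12.7 (Ppara KO), and 11 and 14.4 (DKO). The libraries without Ppara lay below those with it, by a log2 difference of -0.52 ± 0.18 (adjusted p = 0.0915). In DKO against WT this interval passed with centring on the intervals in the fit (-0.76 ± 0.24, limma adjusted p = 0.0389). It also passed there with intervals called in at least 4 libraries (-0.69 ± 0.22, adjusted p = 0.0488). In that last fit chr8:93324943-93326283, called in 7 libraries, was higher in Cpt2 KO than in WT (1.34 ± 0.40, adjusted p = 0.0492). The remaining intervals, chr8:93126086-93129251 at Ces1c, chr8:93272340-93276791 at Ces1f and chr8:93329569-93333075 at Ces1g, passed in no comparison of the main fit. Their folds ran from 6.00 to 11.7, from 9.61 to 21.0 and from 11.5 to 20.8 over the 8 libraries.

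The Ces2 genes, whose family includes acylglycerol hydrolases, had no H3K27ac interval called in all 8 libraries. At the Ces2a start, chr8:104732530-104734602, the fold was 11.9 and 10.7 (WT), no call and 4.60 (Cpt2 KO), 5.76 and 11.1 (Ppara KO), and 10.6 and 6.29 (DKO). Cpt2 KO had the only missing call and the lowest value. Peaks near Ces2a covered 3.03 and 3.36 kb (WT), 0 and 0.302 kb (Cpt2 KO), 0.726 and 1.42 kb (Ppara KO), and 0.397 and 0.969 kb (DKO), so every mutant library lay below WT. Ces2c had no call in WT or Cpt2 KO. It was called in Ppara KO replicate 2 (4.33) and in DKO replicate 2 (8.17) at chr8:104847678-104848315, and in DKO replicate 2 alone (6.96) at chr8:104847093-104847567. Ces2e was called at chr8:104926366-104926801 in WT only (4.27 and 4.89) and at chr8:104925783-104926136 in Cpt2 KO (5.29 and 6.16) and DKO replicate 2 (5.98). The main fit leaves these intervals out, since a missing call has no value. In the alternative fit of intervals called in at least 4 libraries, with each missing call set to the smallest fold of its library, the interval at the Ces2a start was lower in Cpt2 KO than in WT (log2 difference -1.91 ± 0.46, limma adjusted p = 0.0266). So was the Ces2a interval chr8:104731082-104732214 (-1.45 ± 0.41, adjusted p = 0.0436), which had no call in either Cpt2 KO library. Both differences rest in part on values set in this way.

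Ces3a and Ces3b carried the longest H3K27ac intervals of the 10 genes, at 10808 and 14337 bases, and both were lower in DKO. At Ces3a, chr8:105042242-105053049 reaches across the lower end of the gene body. The fold was 24.5 and 22.3 (WT), 27.5 and 20.3 (Cpt2 KO), 19.8 and 20.8 (Ppara KO), and 13.5 and 9.68 (DKO). Only DKO lay apart from the other genotypes. The fold was 2.38-fold lower in DKO than in WT (-1.25 ± 0.24, adjusted p = 0.00356). It was also 1.58-fold lower without Ppara (-0.66 ± 0.17, adjusted p = 0.0290) and 1.51-fold lower without Cpt2 (-0.59 ± 0.17, adjusted p = 0.0350), and both of these averages include DKO. The call for Ppara ended without the first WT library (0.0549), Cpt2 KO replicate 1 (0.120), Cpt2 KO replicate 2 (0.0568), Ppara KO replicate 1 (0.0916), Ppara KO replicate 2 (0.0863) or DKO replicate 2 (0.120). It also ended without centring (0.0509), with quantile normalization (0.0614) and with the peak-width covariate. The call for Cpt2 ended without WT replicate 1 (0.0655), Cpt2 KO replicate 1 (0.0719), Cpt2 KO replicate 2 (0.131), Ppara KO replicate 1 (0.0922), Ppara KO replicate 2 (0.0946) or DKO replicate 2 (0.131). The same call ended without centring (0.125) and with a width-weighted mean fold (0.118).

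At Ces3b, chr8:105078609-105092945 covers the promoter printed above and nearly the whole gene body. The fold was 17.8 and 20.5 (WT), 18.6 and 12.8 (Cpt2 KO), 9.50 and 16.7 (Ppara KO), and 7 and 11.2 (DKO). DKO was the lowest genotype, and before centring its upper library overlapped the range of Ppara KO. The fold was 2.52-fold lower in DKO than in WT (-1.33 ± 0.30, adjusted p = 0.00700), a call that ended without WT replicate 2 (0.0503) or DKO replicate 1 (0.0685). The difference without Ppara was -0.74 ± 0.21 (adjusted p = 0.0433) and ended without WT replicate 1 (0.0627), WT replicate 2 (0.119), Cpt2 KO replicate 1 (0.146), Cpt2 KO replicate 2 (0.0638), Ppara KO replicate 1 (0.198) or DKO replicate 1 (0.152). It also ended without centring (0.0660), with quantile normalization (0.0572), with intervals called in at least 4 libraries (0.0705), with peaks of −log10 q of at least 10 (0.0515) and with a width-weighted mean fold (0.0586).

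The stretch under peaks at the Ces3 genes was shorter in every mutant library than in WT. Peaks near Ces3b covered 14.3 and 15.5 kb (WT), 4.65 and 4.53 kb (Cpt2 KO), 8.15 and 5.62 kb (Ppara KO), and 1.12 and 1.43 kb (DKO). Near Ces3a they covered 12.2 and 10.3 kb (WT), 4.75 and 5.22 kb (Cpt2 KO), 5.69 and 6.59 kb (Ppara KO), and 3.45 and 2.61 kb (DKO). At both genes WT was the highest, DKO the lowest, and the Cpt2 KO libraries lay between DKO and Ppara KO, with no overlap between genotypes. The summit of the highest Ces3b peak lay within the same short stretch in all 8 libraries, from 117 to 203 bases above the lower end of the gene body.

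In H3K4me1 no interval of the 10 genes passed the threshold in the main fit, but replicates overlapped less than in H3K27ac. The Jaccard index of the 2 replicates was 0.654 (WT), 0.390 (Cpt2 KO), 0.470 (Ppara KO) and 0.622 (DKO). In H3K27ac it was 0.713 to 0.726. Whether H3K4me1 itself differed less than H3K27ac was not tested. Of the 70 intervals, the libraries called 43 and 38 (WT), 34 and 31 (Cpt2 KO), 40 and 37 (Ppara KO), and 29 and 31 (DKO). Of all 103014 H3K4me1 intervals, they called 48581 and 50803 (WT), 48365 and 52519 (Cpt2 KO), 50408 and 46327 (Ppara KO), and 45404 and 52180 (DKO). The covered length at the genes was 62.3 and 60.0 kb (WT), 49.1 and 58.7 kb (Cpt2 KO), 61.9 and 49.0 kb (Ppara KO), and 33.4 and 36.3 kb (DKO), so DKO was again below all others. The lower library of each single mutant and both DKO libraries are the 4 with the wider narrowest peak. Of the 70, 15 were called in all 8 libraries (19.0% of all intervals) and 19 in 1 library (28.5%). Over the 15, limma called 0 without Ppara (0.149% of 19526 passed, 0.0563% higher and 0.0922% lower), 0 in DKO against WT (0.0154% passed, 0.00512% higher and 0.0102% lower) and 0 in each of the 4 other comparisons (0% passed). At an unadjusted limma p under 0.05 there were 2 for Ppara, 1 for Cpt2, 0 for the interaction, 2 for Cpt2 KO, 1 for Ppara KO and 2 for DKO against WT. In the same order, 13.9%, 9.85%, 2.85%, 7.73%, 8.42% and 19.5% of all 19526 intervals were under that p. The lowest adjusted p was 0.0789, at chr8:105084456-105092932 in Ces3b for DKO against WT (-1.26 ± 0.29). The fold there was 17.5 and 19.0 (WT), 8.83 and 15.4 (Cpt2 KO), 10.2 and 8.12 (Ppara KO), and 7.65 and 7.89 (DKO). WT was the highest and DKO the lowest, and leaving out either Cpt2 KO library brought 1 interval past the threshold for that comparison.

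A few H3K4me1 intervals were called by genotype. At Ces1d chr8:93197325-93197752 (3.56 and 3.78 in Ppara KO, 4.50 and 3.40 in DKO) and at Ces1f chr8:93278381-93279430 (5.86 and 5.83 in Ppara KO, 5.5 and 4.73 in DKO) were called in all 4 libraries without Ppara and in none with it, a pattern of 0.385% of all H3K4me1 intervals. Both lie within the H3K27ac intervals that were lower without Ppara. At Ces2c, chr8:104846640-104848254 was called in all 6 mutant libraries, at 4.86 to 6.86, and in neither WT library (0.850% of intervals). Calls in both WT libraries alone were made at 3 of 70 (1.85% of intervals), and calls in all but the DKO libraries at 2 of 70 (0.329%).

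H3K9ac was listed as positions without folds in 1 WT and 1 Cpt2 KO library, so no test is possible. Of the 26 intervals, 7 were listed in both libraries, 18 in WT only and 1 in Cpt2 KO only, where 55.2%, 20.8% and 23.9% of all H3K9ac intervals fell in these classes. All 3 intervals at Ces3a and all 8 at Ces3b were listed in WT only, as were the single intervals at Ces1g and Ces2a and both at Ces1c. Ces1f differed, with 4 intervals in both libraries and 1 in Cpt2 KO only. At the upper end of Ces1d and the start of Ces1e, chr8:93194984-93197812 and chr8:93228427-93229551 were listed in both. Ces2c and Ces2e had none. Each of the 26 overlapped an H3K27ac and an H3K4me1 interval, where 73.4% and 80.0% of all H3K9ac intervals did.

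Related genes were taken from lists, each by its strongest interval. Of the other 10 mouse carboxylesterase genes, Ces1b and Ces2h had H3K27ac intervals called in all 8 libraries, Ces4a had intervals called in fewer, and the strongest interval of Ces1b and of Ces2h passed in no comparison (lowest limma adjusted p 0.548 and 0.203). From a list of 19 other genes of ester and acylglycerol turnover, 18 had an H3K27ac interval called in all 8 libraries, and 2 of the 18, Mgll and Bche, were lower without Ppara, beside 3.89% of all intervals. Mgll encodes monoacylglycerol lipase, and its strongest interval had a fold of 33.5 and 33.8 (WT), 23.8 and 22.0 (Cpt2 KO), 12 and 17.0 (Ppara KO), and 14.7 and 22.1 (DKO) (log2 difference without Ppara -0.83 ± 0.17, limma adjusted p = 0.00687). The list's median without Ppara was -0.11, against -0.02 over all intervals. Mttp, the transfer protein that loads lipid onto nascent lipoproteins, was higher in Cpt2 KO than in WT (1.06 ± 0.28, adjusted p = 0.0215), the 1 call of the list there, beside 6.64% of all intervals. Against WT, 1 of the 18 was lower in Ppara KO, which was Mgll (-1.26 ± 0.24, adjusted p = 0.00954), beside 3.61% of all. In DKO 2 were lower, Mgll (-1.12 ± 0.24, adjusted p = 0.00511) and Pon1 (-0.96 ± 0.28, adjusted p = 0.0264), beside 8.91% of all. Of the regulators Nr1i2, Nr1i3, Nfe2l2 and Hnf4a, which encode factors known to act on carboxylesterase genes, 1 of 4 passed, and in each comparison that it passed it was higher. Nr1i3, the xenobiotic receptor CAR, had a fold of 17.5 and 22.7 (WT), 47.9 and 47.9 (Cpt2 KO), 30.6 and 34.2 (Ppara KO), and 36.1 and 34.4 (DKO). All mutant libraries lay above WT, and Nr1i3 was higher in Cpt2 KO (1.09 ± 0.18, adjusted p = 0.00358), Ppara KO (0.68 ± 0.18, adjusted p = 0.0398) and DKO (0.60 ± 0.18, adjusted p = 0.0303) than in WT, beside 6.64%, 2.32% and 10.0% of all intervals higher. It was also higher without Cpt2 (0.51 ± 0.13, adjusted p = 0.0202), beside 7.26% of all. In H3K4me1, 14 of the 19 and all 4 regulators had an interval called in all 8 libraries, and none passed in any comparison.

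The genes whose strongest H3K27ac interval followed Ces1d most closely over the 8 libraries were Iqch, Tagln and Gcnt7. The root mean square distance between the log2 folds was 0.376, 0.378 and 0.420, against a median of 0.913 over 10468 genes. This is a description of likeness over 8 libraries that share their normalization.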

How the data were processed

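H3K27ac, H3K4me1 and H3K9ac were profiled by ChIP-seq in flash-frozen liver, with 8, 8 and 2 libraries and 2 pooled inputs among the 20 samples. The submitters' processing notes name BWA, MACS2 2.1.0 and build mm10. Per the file headers and the narrowPeak format, each deposited peak has a fold over input, which is a ratio from the authors' peak caller, and a −log10 q from the same caller, and the H3K9ac consensus list gives positions only. Peaks were called per library, and the deposited consensus lists merge them. Peak names of H3K27ac Ppara KO replicate 2 carry a different build word, but its overlap with its replicate (Jaccard index 0.723) lay within the 0.713 to 0.726 of all 4 H3K27ac pairs.

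From these, the highest fold of the peaks overlapping each consensus interval by at least 1 base was taken per library, with no pseudocount. Log2 folds were centred on each library's median over all its peaks. Intervals called in all 8 libraries were fitted with limma 3.58.1 (R 4.3.3) on 4 genotype means with a trended prior. Benjamini-Hochberg adjustment ran over all intervals of a mark, with a threshold of 0.05, and every adjusted p is from this test, which was also tested on simulated data. An error after ± is limma's moderated standard error of a log2 difference. It uses 1 spread shared by the 4 genotypes, drawn towards the trend over all intervals. A fold given as "lower" or "higher" is the difference taken back from the log2 scale. The strongest interval of a gene is the one with the highest mean log2 fold among those called in all 8 libraries. Named were all 10 genes, each one's strongest interval and any other past the threshold, other carboxylesterases with a called interval, and up to 4 genes of the ester list. Members and lists were chosen with earlier results of these data known. Strand came only from the promoter table, so Ces1d, Ces1f and Ces3a are described by the ends of the gene body. Alternatives covered scaling, the filter, the q minimum, the distance, the summary of peaks, peak width, the replicate number and each library left out.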

Additional observations from a re-analysis of the deposited data

How the results depend on the processing

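Counts of carboxylesterase H3K27ac intervals past the threshold moved with several settings, and where no value shows it the cause was not tested. For the loss of Ppara the 5 became 3 without centring, with quantile normalization, with peaks of −log10 q of at least 10, and with the narrowest peak width as a covariate, 7 with intervals called in at least 4 libraries (uncalled values set to the library's smallest fold), and 1 to 4 with a library left out. For the loss of Cpt2 the 2 became 1 with intervals called in at least 4 libraries or with a width-weighted mean fold, 3 with centring on the intervals in the fit (Ces3b added), 0 with the width covariate, and 0 to 2 with a library left out. For Cpt2 KO against WT the 3 became 6 with intervals called in at least 4 libraries, 1 within 1 kb and 0 with the width covariate, and 0 to 4 with a library left out. For Ppara KO against WT the 1 became 3 with intervals called in at least 4 libraries, 0 with the width covariate, and 0 to 1 with a library left out. For DKO against WT the 4 became 7 with intervals called in at least 4 libraries, 0 with the width covariate, and 3 to 5 with a library left out. In H3K4me1 the 0 became 0 to 1 with a library left out, both for the loss of Ppara (1 without Cpt2 KO replicate 1) and for DKO against WT (1 without either Cpt2 KO library). The interaction stayed at 0 in both marks. A left-out library leaves 1 sample in its genotype, assumed to vary like the others. With a replicate block the counts were 6, 2, 0, 3, 1 and 5 in the order Ppara, Cpt2, interaction, Cpt2 KO, Ppara KO and DKO, and no call was lost. The block added calls at Ces1e for Ppara (interval starting at 93231496, adjusted p = 0.0477) and at Ces1c for DKO (93129473, 0.0453). The replicate numbers share no stated animal or batch, and deviations of same-numbered libraries correlated from -0.489 to 0.172. The difference at the Ces1c interval starting at 93129473 without Cpt2 became 0.73 (adjusted p = 0.811) with the width covariate. Over the 15 single differences called, 180 of 253 alternative values kept direction and threshold, 72 lost the threshold and 1 reversed. Without centring, the median of all H3K27ac intervals shifted by 0.18 (Cpt2), 0.17 (Cpt2 KO) and 0.22 (DKO) on the log2 scale. Centring on the intervals in the fit was chosen after seeing the data. With 2 libraries per genotype, unknown read depth and no value where no peak was called, small differences and losses below the calling limit cannot be measured here.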
